A study of Homo sapiens with 6 samples.

Results

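The heat shock proteins and their DNAJ cochaperones were examined in K562, a human cell line derived from a chronic myeloid leukaemia, with erythroid features. Members were all gene symbols that begin with HSPA, HSPB, HSPD, HSPE, HSPH, HSP90, DNAJA, DNAJB or DNAJC followed by a digit or an A, which gave 84 of the 28069 genes in the table of estimated counts. Of these, 71 were taken as chaperones or J-domain proteins. The other 13 share only the name: pseudogenes, readthrough transcripts, antisense or divergent transcripts, and HSPB11 and HSPBAP1, which are not small heat shock proteins despite their symbols. HSP90B1, the HSP90 of the endoplasmic reticulum, does not match the pattern and was no member. The filter on low counts left 62 members among 12764 tested genes, and 7 members were listed at 0 in every library.

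The study asked how the zinc-finger transcription factor ZNF410 regulates gene expression. It compared cells that received a negative-control guide RNA (labelled sgNeg2, genotype WT) with cells that received guide sgRNA1 or guide sgRNA2 against ZNF410 (genotype ZNF410 KO). Each of the 3 groups had 2 libraries of total RNA, numbered replicate 1 and replicate 2, and all were grown in the same medium. The labels do not say whether the libraries are separate cultures, whether the knockout cells are clones or pools, or what a replicate number stands for, so p-values measure only the spread between these libraries, which may be technical. Paired values below are given in the order replicate 1, replicate 2.

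Heat shock proteins are chaperones that bind unfolded proteins. HSP70 proteins work in a cycle of ATP binding and hydrolysis that J-domain proteins (the DNAJ families) start and that nucleotide exchange factors of the HSP110 type complete, HSP90 receives clients from HSP70, small heat shock proteins hold unfolded proteins without ATP, and the chaperonin HSPD1 with its lid HSPE1 folds proteins in mitochondria. On heat or proteotoxic stress the transcription factor HSF1 binds heat shock elements, repeats of the unit GAA and its complement, in the promoters of the inducible members. Erythroid cells make very large amounts of globin and are known for their use of chaperones during maturation.

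Estimated counts summed to 17228254 to 18689560 per library, and the whole-number counts of the second table to 8788816 to 9537470. Libraries of the same replicate number deviated together from their group means (r = 0.771 to 0.835 over 10637 genes), so the replicate number was also fitted as a block, and those values are given beside the main ones. The targeted gene ZNF410 had a TPM (a level per transcript length, scaled to the same total in each library) of 21.2 and 22.4 in the control, 9.64 and 13.2 with sgRNA1 and 9.35 and 11.4 with sgRNA2. With the block its edgeR log2 fold change was -0.90 with sgRNA1 (SE 0.115, adjusted p 0.0013) and -1.10 with sgRNA2 (SE 0.116, adjusted p 0.000263). The fit lacking the block gave each guide an adjusted p of 1.00. Of 10 markers of erythroleukaemic K562 cells, 10 had a TPM of at least 1 in every library. Their summed TPM was 19124 and 45582 in the control, 24705 and 62123 with sgRNA1 and 27064 and 60998 with sgRNA2. Markers of other blood lines summed to 19.7 to 78.9, with 2 of 7 at a TPM of at least 1 in every library. These were CD3D, at 6.78 to 52.7, and PTPRC, at 11.8 to 25.2. MS4A1, a B-cell marker, was at 0 in all libraries but 1. Markers of adherent lines summed to 502 to 745, with 3 of 5 (KRT8, KRT18 and EPCAM) at a TPM of at least 1 in every library.

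The members made up 1.34% to 1.68% of all transcripts by TPM, and 51 of the 84 had a TPM of at least 1 in every library. HSP90 was the most abundant class by summed TPM, at 5792 to 6772 over the 6 libraries, followed by HSP70 at 3401 to 5012. The mitochondrial chaperonin reached 1275.0 to 1604 and the DNAJC family 1032 to 1149 over its 32 symbols. The small heat shock class reached 759 to 923 by name, but only 568 to 732 over its 7 chaperones, since HSPB11 alone held 135 to 233. The DNAJA family (373 to 561), the DNAJB family (389 to 518) and HSP110 (296.5 to 403) were lowest. The ranges of the DNAJA, DNAJB and HSP110 classes overlapped one another, but within each of the 6 libraries HSP110 was the lowest. The order of DNAJA and DNAJB changed between libraries. In control replicate 1 DNAJA was at 373 and DNAJB at 389, and in control replicate 2 they were at 561 and 518.

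**Figure D1:**
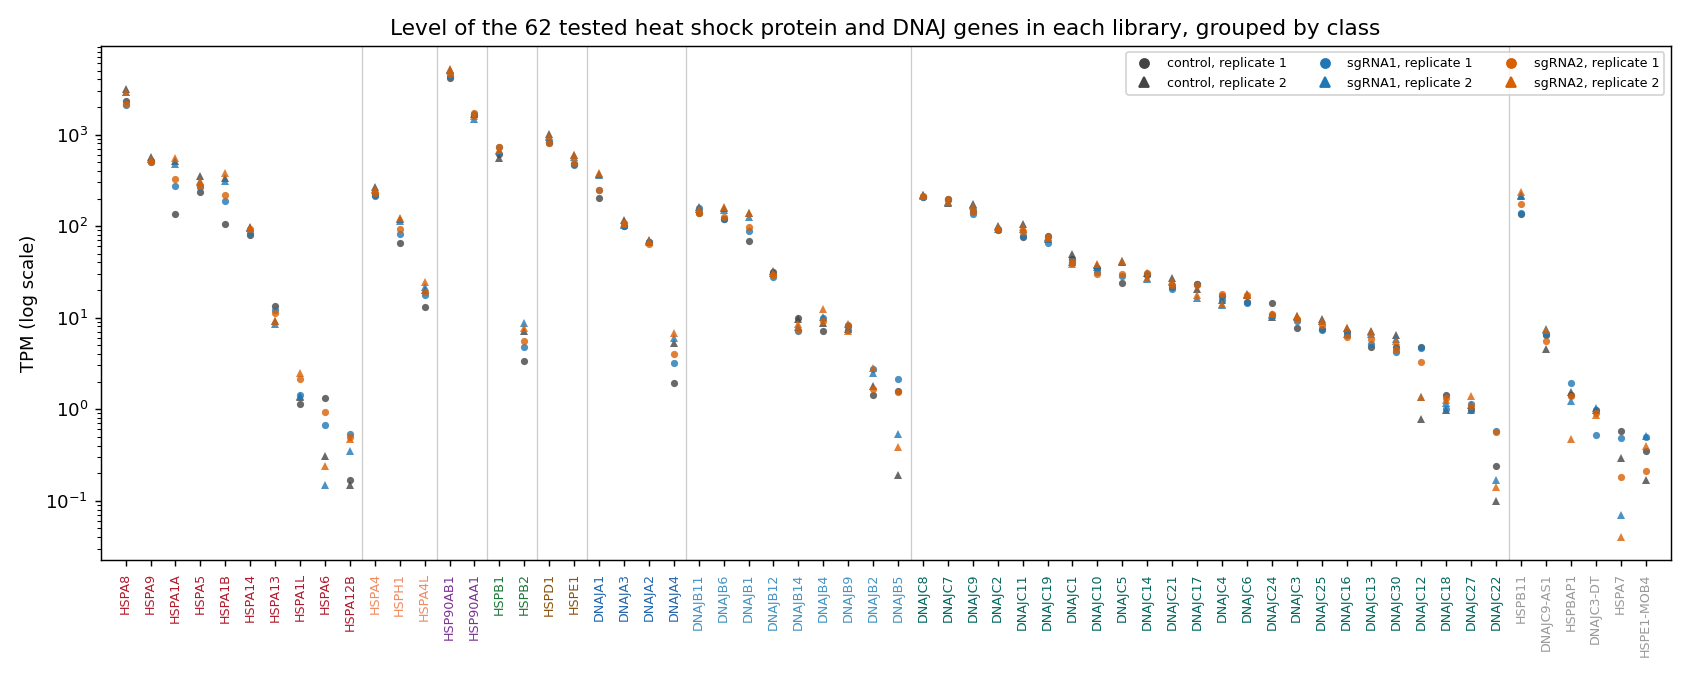
TPM of the 62 tested members in each of the 6 libraries on a log scale, grouped by class (label colour, grey lines) and ordered within a class by control mean; circles are replicate 1, triangles replicate 2, and colours mark the 3 groups. HSP90AB1 (4150.5 to 5157) and HSPA8 (2083 to 3142) lead, and HSPA1A and HSPA1B show circles well apart from triangles.

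Among the cytosolic HSP70 genes, HSPA8, the constitutive HSC70, had a TPM of 2313 and 3142 in the control, 2083 and 2900.3 with sgRNA1 and 2143 and 2883 with sgRNA2. Every replicate 2 library lay above every replicate 1 library. HSPA1A and HSPA1B, near-identical stress-inducible genes at chr6:31815543-31817942 and chr6:31827738-31830254, were read at 135 and 509 (HSPA1A) and 105 and 333 (HSPA1B) in the control. With sgRNA1 they were at 276 and 476 for HSPA1A and 187 and 311 for HSPA1B, and with sgRNA2 at 326 and 549.7 for HSPA1A and 219 and 377 for HSPA1B. The control replicate 1 library was the lowest for each. HSPA6, an HSP70 known to be expressed almost only under stress, stayed at 0.15 to 1.32, and HSPA1L at 1.14 to 2.46. HSPA2 and HSPA12A did not pass the filter on low counts.

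Their proximal promoters are shown because the sequences carry the heat shock element and because those of HSPA1A and HSPA1B show how alike these copies are. Each is the 250 bases before a RefSeq start (assembly GRCh38.p14, a release of hg38), read 5′ to 3′ on the gene's strand, with every match to GAANNTTC in capitals; this motif is its own reverse complement. They lie at chr6:31815293-31815542 on the plus strand, chr6:31827488-31827737 on the plus strand, chr11:123062137-123062386 on the minus strand, chr19:14518398-14518647 on the minus strand and chr7:76302423-76302672 on the plus strand.
HSPA1A: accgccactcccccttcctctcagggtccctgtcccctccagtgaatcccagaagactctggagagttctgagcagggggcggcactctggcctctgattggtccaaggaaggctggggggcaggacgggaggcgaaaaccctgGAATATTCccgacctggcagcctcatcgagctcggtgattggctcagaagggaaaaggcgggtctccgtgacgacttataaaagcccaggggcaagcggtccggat
HSPA1B: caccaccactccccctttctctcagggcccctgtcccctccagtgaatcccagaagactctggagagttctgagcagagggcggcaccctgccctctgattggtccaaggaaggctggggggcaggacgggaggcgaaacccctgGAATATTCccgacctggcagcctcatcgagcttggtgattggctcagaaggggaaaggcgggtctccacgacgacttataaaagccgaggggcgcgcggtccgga
HSPA8: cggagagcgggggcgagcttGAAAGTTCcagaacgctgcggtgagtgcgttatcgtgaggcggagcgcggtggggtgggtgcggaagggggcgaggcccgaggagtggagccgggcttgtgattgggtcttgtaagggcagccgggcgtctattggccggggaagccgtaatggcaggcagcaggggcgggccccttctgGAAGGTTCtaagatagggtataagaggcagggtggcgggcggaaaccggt
DNAJB1: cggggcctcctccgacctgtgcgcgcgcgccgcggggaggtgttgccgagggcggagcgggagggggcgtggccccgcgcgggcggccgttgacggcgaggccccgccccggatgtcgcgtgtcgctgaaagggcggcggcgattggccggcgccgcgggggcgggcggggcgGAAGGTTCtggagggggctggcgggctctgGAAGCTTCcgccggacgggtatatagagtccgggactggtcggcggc
HSPB1: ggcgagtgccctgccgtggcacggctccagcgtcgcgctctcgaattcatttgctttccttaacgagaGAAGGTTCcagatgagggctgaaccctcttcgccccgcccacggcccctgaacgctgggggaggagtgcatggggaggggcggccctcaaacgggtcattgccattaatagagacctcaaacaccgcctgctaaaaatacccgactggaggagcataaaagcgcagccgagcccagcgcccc
The match begins 106 bases before the start in HSPA1A and 105 bases before it in HSPA1B, and these windows were identical at 235 positions, with 14 mismatches and 2 gaps (93.6% identical). HSPA8 has matches at 230 and 50 bases, DNAJB1 at 77 and 47 bases and HSPB1 at 182 bases before the start.

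In the endoplasmic reticulum, HSPA5 (BiP, the main HSP70 of that compartment) had a TPM of 234 and 355 in the control, 268 and 305 with sgRNA1 and 277 and 314 under sgRNA2. The control libraries were both the lowest and the highest. HSPA13, a microsomal HSP70, was at 8.55 to 13.3. Of the J-domain proteins of this compartment, DNAJB11, which binds BiP clients, was at 138 to 161, DNAJC1 at 38.8 to 49.2, DNAJC10, a disulphide reductase, at 30.0 to 38.3, DNAJB12 at 27.4 to 32.5, DNAJC3 at 7.65 to 10.4 and DNAJB9 at 7.22 to 8.50. In mitochondria, HSPD1 had 799 to 1003, HSPE1 469 to 601, HSPA9 (mortalin) 496 to 564, DNAJA3 99.7 to 117 and DNAJC19, a part of the protein import machinery, 65.3 to 78.3. DNAJC15, the mitochondrial relative of DNAJC19, was listed at 0 in every library.

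The HSP90 pair had constitutive HSP90AB1 above inducible HSP90AA1. Constitutive HSP90AB1 had 4150.5 and 5114 in the control, 4326 and 5065 with sgRNA1 and 4530 and 5157 with sgRNA2, while inducible HSP90AA1 had 1641 and 1657, 1663 and 1487, and 1730.2 and 1574. Every library held more HSP90AB1 than HSP90AA1. The HSP110 exchange factors were ordered HSPA4 (214 to 264), HSPH1 (65.1 to 123) and HSPA4L (13.1 to 24.4), with no overlap of their ranges. HSPB1 (HSP27) held nearly all transcripts of the small heat shock class, and HSPB2, HSPB3, HSPB6, HSPB7, HSPB8 and HSPB9 were each at most at 8.79.

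Of the cytosolic and nuclear J-domain proteins, DNAJA1 (an HSP40 that serves HSC70) was read at 205 and 367 in the control, 245 and 362 with sgRNA1 and 248 and 376 with sgRNA2. DNAJB1, the main stress-inducible HSP40, had 68.1 and 141, 87.9 and 127, and 98.8 and 141. In these genes the replicate 2 libraries were again all above the replicate 1 libraries. The most abundant DNAJC members were DNAJC8, which is associated with splicing (206 to 220.4), DNAJC7, which also binds HSP90 (179 to 198), and DNAJC9, a chaperone of histones H3 and H4 (134 to 173). DNAJB6, which holds back aggregation of polyglutamine proteins, had 119.9 to 159.6, and DNAJA2 64.0 to 71.1. At the low end, DNAJB3, DNAJB8 and DNAJC15 were listed at 0 in every library.

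The main comparison asked which members differed between the knockout and wild-type libraries. Without the block, edgeR called 0 of 62 members for sgRNA1, for sgRNA2 and for knockout against wild type, as it called 0.0% of all tested genes in each. An unadjusted p under 0.05 was found for 2, 2 and 4 members, and for 135, 170 and 316 of all 12764 tested genes. The DESeq2 Wald test without the block called 0 members as well (0.0273%, 0.0491% and 0.114% of all genes), as did limma on log2(FPKM + 1) (0.00846% in each contrast). The 4 members with an unadjusted p under 0.05 in the genotype contrast were HSPA12B, a distant HSP70 relative at a TPM of 0.15 to 0.53, at 1.55 (SE 0.418), DNAJB2 at 0.77 (SE 0.300), DNAJB4 at 0.40 (SE 0.144) and DNAJC1 at -0.21 (SE 0.0811) on the log2 scale, each with an edgeR adjusted p of 1.00.

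With the replicate block, edgeR called 1 member higher for sgRNA1 (HSPB1), 2 higher for sgRNA2 (HSPB1 and HSPA4L) and 2 higher for knockout against wild type (HSPB1 and HSPA4L), and none lower. The DESeq2 Wald test with the block called 1, 1 and 2 members (0.862%, 1.33% and 2.34% of all genes), and limma on log2(FPKM + 1) with the block 0, 0 and 1 (0.372%, 0.795% and 1.64%). Over all tested genes these contrasts called 1.39%, 2.26% and 3.03% (1.0%, 1.36% and 1.97% higher), so the members' shares of 1 and 2 in 62 were near the background. The members' median log2 fold change with the block was 0.02, -0.01 and 0.00, against 0.00 over all genes in each contrast. In the whole-number counts with the block, edgeR called 0, 1 and 2 of 59 tested members (0.887%, 1.38% and 1.84% of all genes). These were DNAJA3 for sgRNA2, whose counts are given with the counting, and again HSPB1 and HSPA4L in the genotype contrast.

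HSPB1, the small heat shock protein HSP27 (chr7:76302673-76304292), had a TPM of 619 and 559 in the control, 723 and 658 with sgRNA1 and 725 and 681 with sgRNA2. All 4 knockout libraries lay above both controls. With the block its edgeR log2 fold change, knockout against wild type, was 0.25 (SE 0.0475, adjusted p 0.0134), a 1.19-fold rise. Guide sgRNA1 gave 0.26 (SE 0.0553, edgeR adjusted p 0.0333), and guide sgRNA2 0.24 (SE 0.0553, edgeR adjusted p 0.046). The genotype contrast had an edgeR adjusted p of 1.00 when no block was fitted, and over 25 alternatives it ran from 0.000304 to 1.00. The genotype call with the block was lost without control replicate 2 (log2 0.21, adjusted p 0.102) and without sgRNA1 replicate 1 (0.25, adjusted p 0.0627). The sgRNA1 call was lost without either sgRNA1 library (adjusted p 0.411 without replicate 1 and 0.37 without replicate 2), and the sgRNA2 call without any one of the 4 knockout libraries (0.113 and 0.0542 for those of sgRNA1, 0.0721 and 0.202 for those of sgRNA2).

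HSPA4L, an HSP110-type exchange factor (chr4:127781796-127840733), had a TPM of 13.1 and 20.2 in the control, 17.8 and 21.8 with sgRNA1 and 18.8 and 24.4 with sgRNA2. Each knockout library lay above the control of its own number, but control replicate 2 lay above both replicate 1 knockout libraries. With the block its edgeR log2 fold change in the genotype contrast was 0.33 (SE 0.0675, adjusted p 0.0177), a 1.26-fold rise, and without the block its adjusted p was 1.00. For sgRNA2 it was 0.36 (SE 0.0799, adjusted p 0.0329). The value for sgRNA1 was 0.31 (SE 0.0801, adjusted p 0.0973), which did not pass with all libraries and did without control replicate 2 (adjusted p 0.00162), sgRNA2 replicate 1 (0.0323) or sgRNA2 replicate 2 (0.0315). The genotype call was lost without control replicate 1 (0.23, adjusted p 0.235), sgRNA1 replicate 1 (0.33, adjusted p 0.0623) or sgRNA2 replicate 2 (0.33, adjusted p 0.0723), and the sgRNA2 call without control replicate 1 (0.26, adjusted p 0.103), sgRNA2 replicate 1 (0.34, adjusted p 0.0946) or sgRNA2 replicate 2 (0.39, adjusted p 0.0523). Over the 14 alternatives with the block the edgeR, DESeq2 and limma adjusted p of HSPA4L ran from 0.00537 to 0.397.

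The other members did not pass in the edgeR fit of the filtered estimated counts with the block. In the genotype contrast HSPA1A was at 0.54 (SE 0.165, edgeR adjusted p 0.114), HSPA1B at 0.47 (SE 0.137, adjusted p 0.0927) and DNAJB4, an inducible HSP40, at 0.40 (SE 0.104, adjusted p 0.0607). Members at low levels had larger values with larger errors, among them HSPA12B at 1.55 (SE 0.453, edgeR adjusted p 0.0988), HSPA7 at -1.25 (SE 0.586, adjusted p 0.334) and DNAJC22 at 1.02 (SE 0.42, adjusted p 0.26). DNAJC1, a J-domain protein of the endoplasmic reticulum membrane, was at -0.21 (edgeR adjusted p 0.103) and HSPA8 at -0.12 (adjusted p 0.125). The values of HSPH1 (0.21, edgeR adjusted p 0.163), DNAJA1 (0.14, adjusted p 0.194) and DNAJB1 (0.18, adjusted p 0.317) did not pass either. Without the filter on low counts the fit with the block also called HSPA1A (edgeR adjusted p 0.0101), HSPA1B (0.00777) and DNAJB4 (0.0439) in the genotype contrast, at log2 values that differed by under 0.01 from those above. This fit called 5 of 77 members in the genotype contrast, 5 for sgRNA1 and 10 for sgRNA2, against 2.85%, 2.82% and 3.98% of all genes. The calls for sgRNA1 included HSPA1A, HSPA1B, HSPA4L and HSPB1. Those for sgRNA2 were 8 higher (HSPA1A, HSPA1B, DNAJA4, DNAJB1, DNAJB4, HSPH1, HSPB1 and HSPA4L) and 2 lower (DNAJC1 and HSPA8). By position alone, 15 of 62 members (24.2%) had each knockout library above the control of its number, against 16.9% of all tested genes, and 11 (17.7%) had each below, against 16.8%. All 4 knockout libraries lay above both controls for 5 members (8.06%, against 4.87% of all genes), namely DNAJB2, DNAJB4, HSPA12B, HSPA1L and HSPB1, and below both for 2 (3.23%, against 4.61%), DNAJB12 and DNAJC1.

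**Figure D2:**
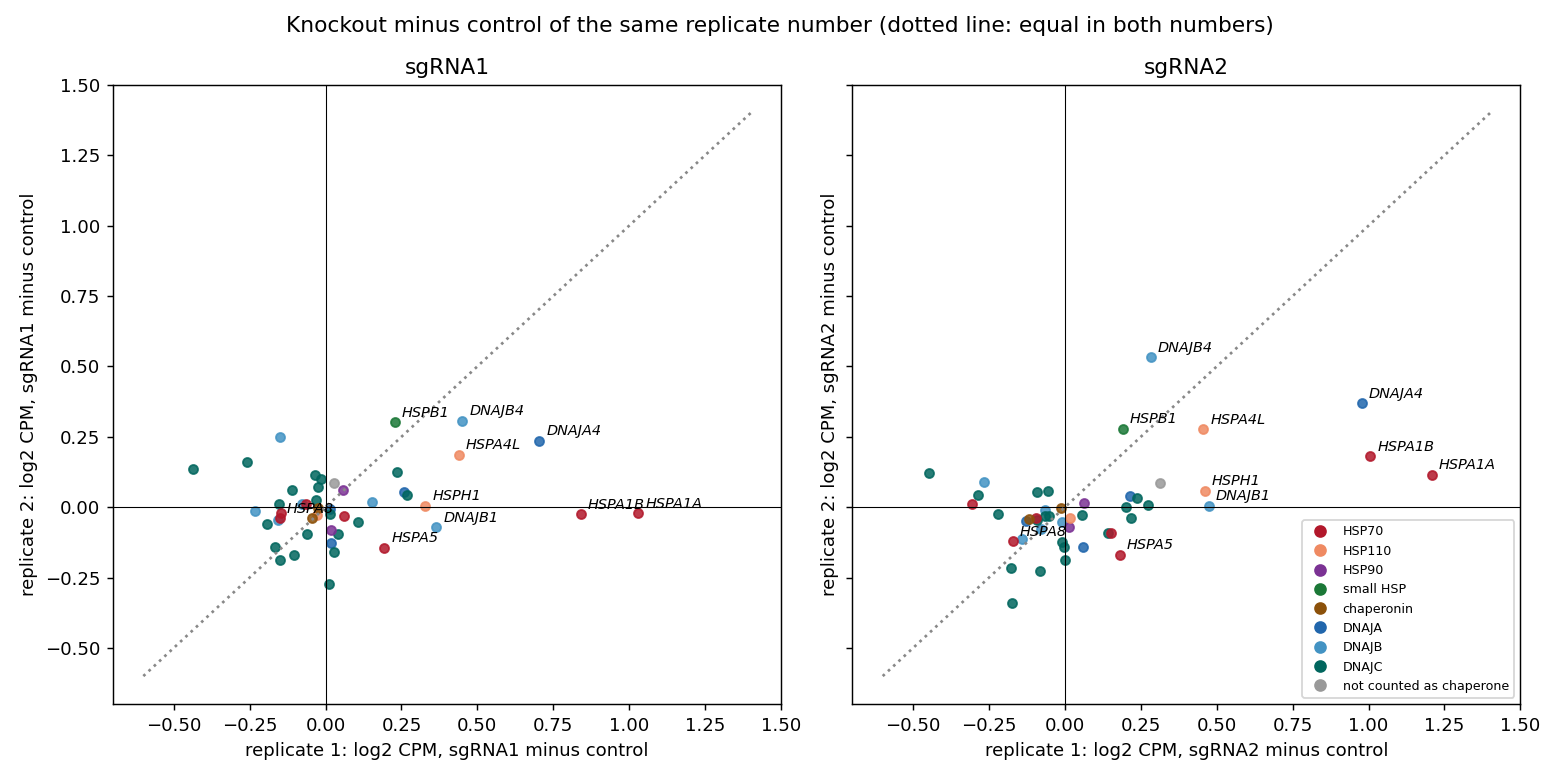
Knockout minus same-number control, in log2 CPM, for the 47 members with a mean estimated count of at least 100, one panel per guide. CPM is the count scaled to the library size after TMM normalization, with 0.1 added before the log2. Replicate 1 is on the horizontal and replicate 2 on the vertical axis, and both panels use the same control libraries. HSPA1A lies far to the right (1.03 and 1.21 in replicate 1) and close to 0 on the vertical axis (-0.02 and 0.12), while HSPB1 lies above 0 on both axes.

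Erythroid markers moved in the same contrast. With the block, the K562 markers HBE1, HBG1, HBG2, HBZ and TAL1 rose in knockout against wild type by edgeR and none of the list fell, with the summed TPM given above. PTPRC, a marker of other blood lines, fell, and among the adherent-line markers COL1A1 (TPM 0.06 to 0.40) rose and EPCAM fell. The part of these differences in the values of HSPB1 and HSPA4L was not tested.

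The guides were also set against each other. For sgRNA2 against sgRNA1 edgeR called 0 of 62 members both without the block (0.0% of all genes) and with it (0.0548%). An unadjusted p under 0.05 was found for 0 and 2 members, and for 21 and 581 of all 12764 tested genes. In the whole-number counts with the block 0 of 59 were called (0.0896%). The DESeq2 Wald test also called 0, with and without the block (0.0218% of all genes in each), as did limma on log2(FPKM + 1) (0.0169% with the block and 0.0% without). Both guides are compared with the same control libraries, so their separate contrasts are not independent of each other.

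The replicate numbers were then compared. In replicate 2 against replicate 1, fitted by edgeR with the group as a term, 34 of 62 members were called, 22 higher and 12 lower. Over all tested genes 52.6% were called, 25.5% higher and 27.1% lower, so the share of members called was near the background and their rises outnumbered their falls. The whole-number counts gave 28 of 59 members, 19 higher and 9 lower, against 45.0% of all genes, and limma on log2(FPKM + 1) without an FPKM filter, an alternative added later, gave 3 of 84 (3.43% of all genes), with DNAJA1, DNAJA4, DNAJB1 and DNAJB5 among the calls lost. In the estimated counts the median log2 difference was 0.08 over the members and 0.00 over all genes. All replicate 2 libraries lay above all replicate 1 libraries for 24 members (38.7%, against 28.9% of all genes), and below them for 11 (17.7%, against 28.1%). What a replicate number stands for is not stated, so a cause of these differences cannot be told apart from any other that goes with the number.

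**Figure D3:**
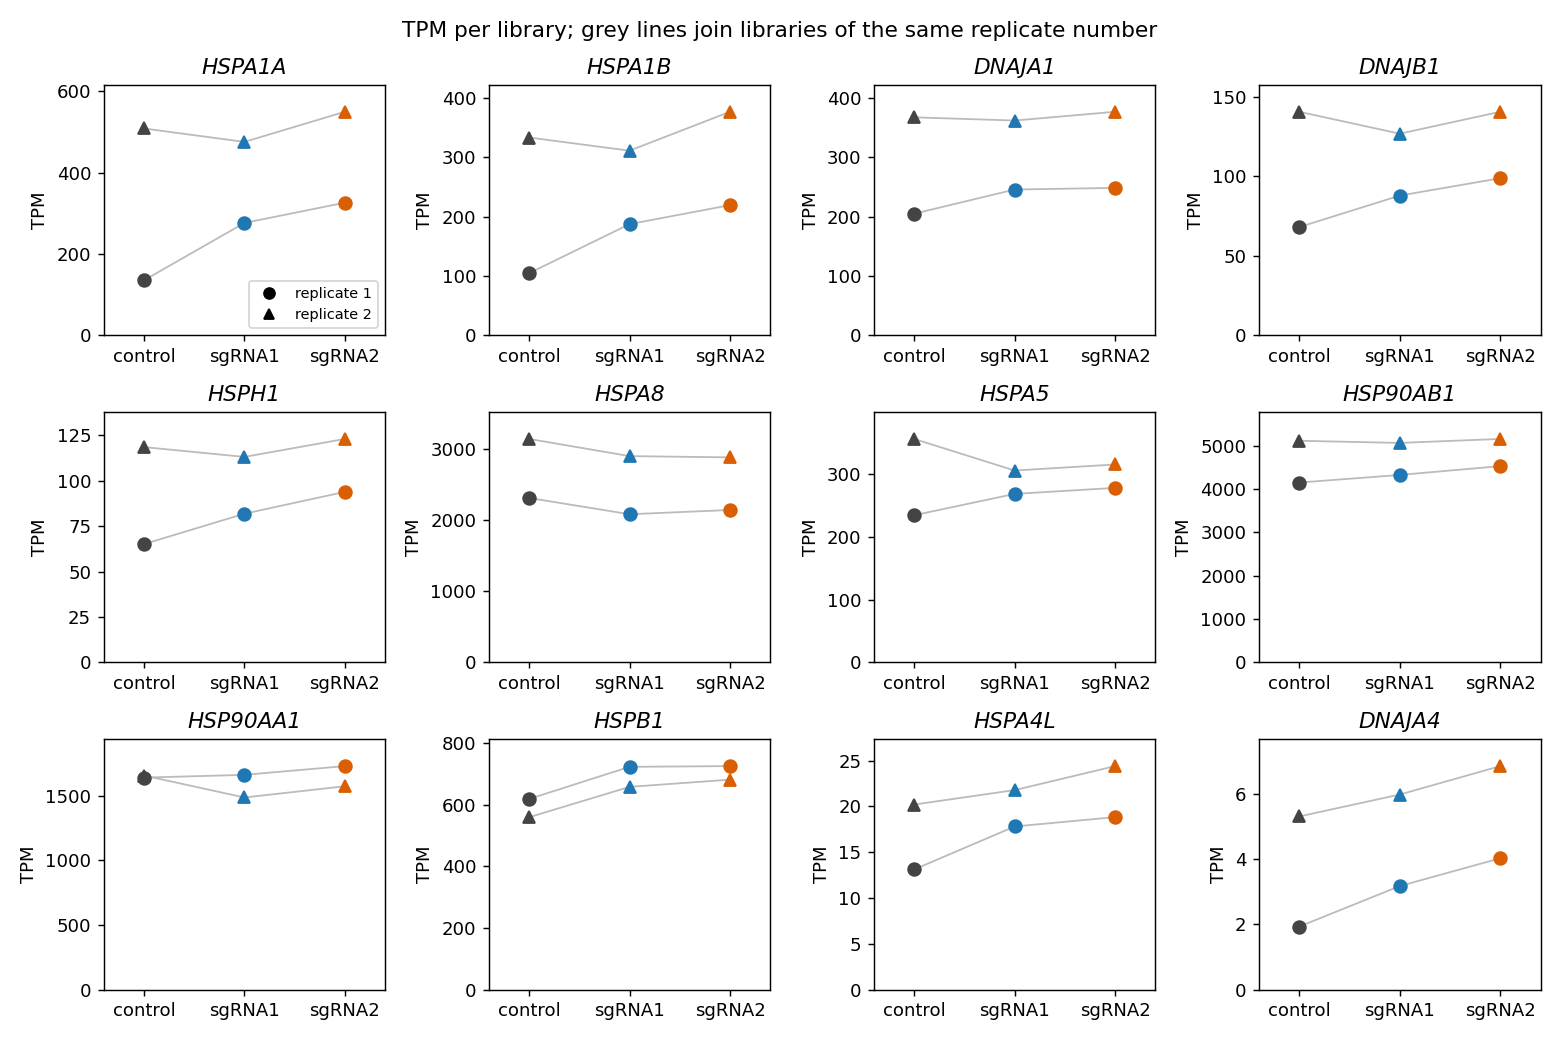
TPM of 12 members in each library, 1 panel per gene, with lines joining libraries of the same replicate number. In HSPA1A, HSPA1B, DNAJA1, DNAJB1 and HSPH1 the replicate 2 line lies above the replicate 1 line, with the widest gap at the control.

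The 8 members with the largest rises were HSPA1A, HSPA1B, DNAJA4, HSPB2, DNAJB1, DNAJA1, DNAJC5 and HSPH1, of which DNAJA4, HSPB2 and DNAJC5 are not on the stress-inducible list. HSPA1A was 1.06 higher on the log2 scale in replicate 2 (SE 0.149, edgeR adjusted p 6.59e-05) and HSPA1B 0.98 higher (SE 0.12, adjusted p 2.24e-05). With one or the other control library left out these values were 0.72 for HSPA1A and 0.71 for HSPA1B, still called. Among their J-domain partners, DNAJA4 rose by 0.94 (SE 0.15, edgeR adjusted p 0.00018), DNAJB1 by 0.61 (SE 0.0754, adjusted p 2.3e-05) and DNAJA1 by 0.59 (SE 0.0488, adjusted p 8.14e-07). HSPB2, a small heat shock protein of muscle, rose by 0.72 (SE 0.234, edgeR adjusted p 0.0205) at a TPM of 3.39 to 8.79. It kept 4 to 21 whole-number counts per library and overlaps CRYAB in the RefSeq annotation. CRYAB rose by 0.67 (edgeR adjusted p 0.00223), and the reads of these genes may not be separable. DNAJC5, the cysteine string protein of vesicles, rose by 0.51 and HSPH1 by 0.49, and the abundant HSPA8 and HSP90AB1 by 0.37 and 0.16. Of the 14 members on the stress-inducible list 9 rose and 3 fell, where 25.5% of all tested genes rose and 27.1% fell, and the summed TPM of the list was 10619 to 13555. The list holds HSPA1A, HSPA1B, HSPA1L, HSPA6, HSPA8, HSPB1, HSPD1, HSPE1, HSPH1, HSP90AA1, HSP90AB1, DNAJA1, DNAJB1 and DNAJB4, so it includes the largely constitutive HSPA8 and HSP90AB1, which are among the rises and hold most of its summed TPM. It was chosen with results of these data known and is no independent evidence of a direction.

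Some inducible members fell. HSPA6 fell by 2.12 on the log2 scale (SE 0.391, edgeR adjusted p 0.000587) at a TPM of 0.15 to 1.32, HSPB1 by 0.20 and HSP90AA1 by 0.17. Among the J-domain genes DNAJB5 fell by 2.32 (SE 0.319, edgeR adjusted p 5.63e-05), DNAJC22 by 1.92 and DNAJC12 by 1.73, all at low levels: DNAJC12, for example, was at 4.77 and 0.79 in the control, 4.60 and 1.36 with sgRNA1 and 3.27 and 1.37 with sgRNA2. HSPA13 fell by 0.52 and HSPA7, a pseudogene close in sequence to HSPA6, by 1.75; how reads divide between HSPA6 and HSPA7 is uncertain. In the endoplasmic reticulum list of 8, HSPA5 rose by 0.25 (SE 0.0595, edgeR adjusted p 0.00372; 0.14 with one or the other control library left out, still called) and HSPA13 fell, and in the mitochondrial list 2 of 5 tested rose, HSPE1 by 0.23 and HSPD1 by 0.18, against the same 25.5% and 27.1% of all genes. Some calls were lost with a library left out while the fold kept its direction. Without sgRNA1 replicate 1 the log2 fold change was -1.33 for HSPA7 (edgeR adjusted p 0.191), -0.36 for DNAJC17 (0.103), 0.16 for DNAJC9 (0.0946), 0.12 for HSPA4 (0.165) and 0.66 for HSPB2 (0.126). Without sgRNA1 replicate 2 the adjusted p was 0.175, 0.0936, 0.1, 0.181 and 0.128, at -1.33, -0.36, 0.15, 0.12 and 0.66. HSPB2 also lost its call without control replicate 1 (0.61, adjusted p 0.0682) or 2 (0.62, adjusted p 0.0657). DNAJC4, at -0.32 in the fit of all libraries, lost it without any one of the 6 (-0.35 to -0.27, adjusted p 0.0599 to 0.166).

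**Figure D4:**
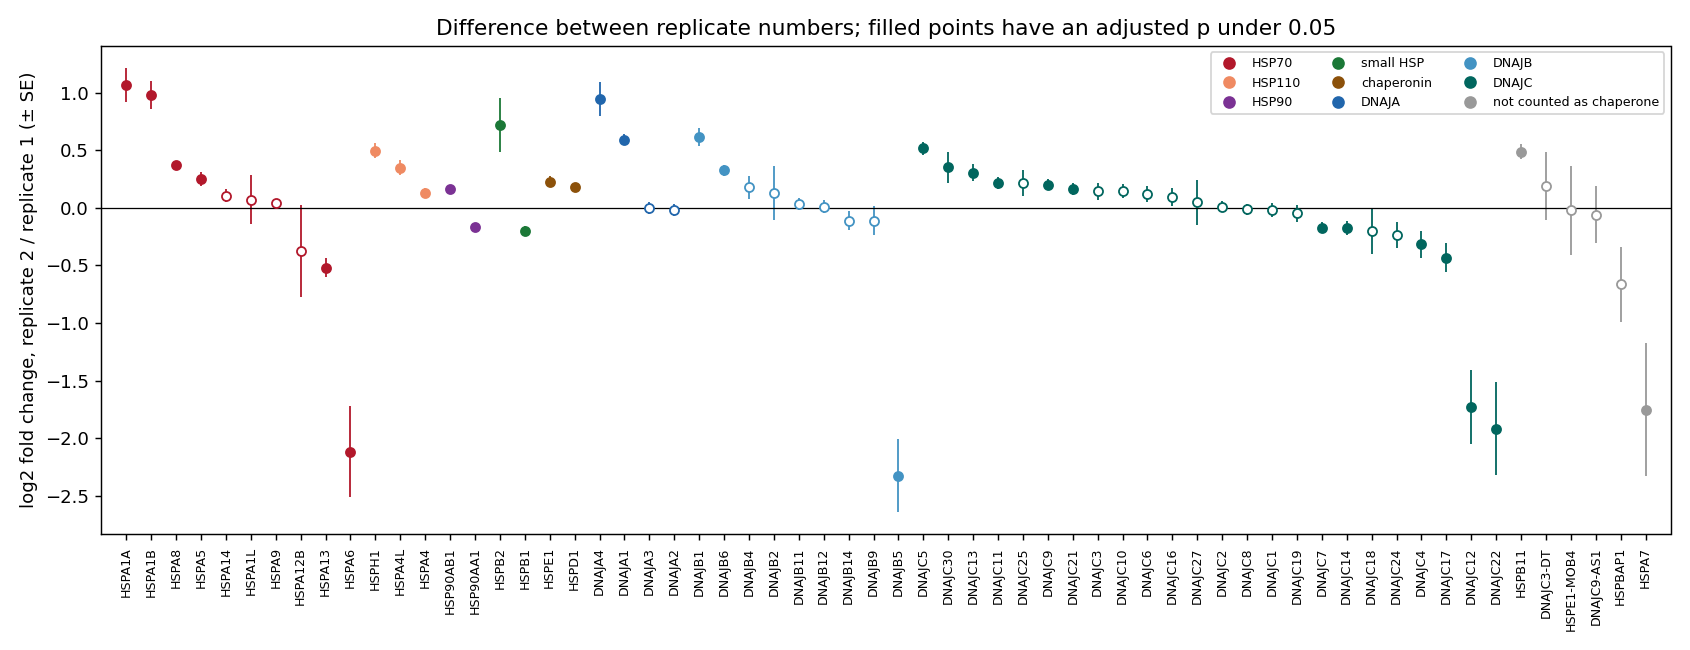
Log2 fold change of replicate 2 against replicate 1 with its standard error for the tested members, filled where the edgeR adjusted p was under 0.05. HSPA1A and HSPA1B stand at the top (1.06 and 0.98) and DNAJB5 and HSPA6 at the bottom (-2.32 and -2.12).

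Other cell markers moved with the replicate number as well. Of the 10 K562 markers 8 rose and 1 fell, the latter being GATA1 (log2 fold change -0.15, edgeR adjusted p 0.016). Their summed TPM was 19124 to 27064 in the replicate 1 libraries and 45582 to 62123 in the replicate 2 libraries. The globin genes HBG1 (6428 to 18039) and HBG2 (10544 to 33184) held most of that sum in every library. All 3 tested markers of other blood lines fell (sums of 51.4 to 78.9 in replicate 1 and 19.7 to 25.7 in replicate 2), as did KRT8 and KRT18 among the adherent-line markers. Their part in the chaperone differences was not tested, and in bulk RNA a change in the share of cells and a change in RNA per cell cannot be told apart.

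The knockout differences of HSPA1A and HSPA1B in these libraries were not alike in both replicate numbers, and a test of this was added after the paired values were seen. In replicate 1, HSPA1A was 1.03 (sgRNA1) and 1.21 (sgRNA2) higher than the control in log2 CPM, and in replicate 2 it differed by -0.02 and 0.12. The interaction in edgeR was -1.07 for HSPA1A (SE 0.114, adjusted p 0.000835) and -0.84 for HSPA1B (SE 0.124, adjusted p 0.0139). These were 2 of 62 members called, both lower, against 0.11% of all genes (0.0705% higher and 0.0392% lower). An unadjusted p under 0.05 was found for 8 members and for 1199 of all 12764 tested genes. DNAJB1 (-0.45, edgeR adjusted p 0.144), HSPA5 (-0.34, adjusted p 0.187) and HSPH1 (-0.36, adjusted p 0.267) did not pass in the fit of all 6 libraries.

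Each replicate number has 1 control library, so the standard errors of this test come from the difference between the guides alone and hold no spread between controls. A deviation of control replicate 1, the lowest library for HSPA1A and HSPA1B, cannot be told apart from an effect of the replicate number, and no fit without that library can be made. In the whole-number counts HSPA1A was again called (-1.29, edgeR adjusted p 0.00112) and HSPA1B was not (-1.04, adjusted p 0.469), which made 1 of 59 members against 0.244% of all genes. Without each knockout library in turn both stayed called, at -1.15 to -0.97 for HSPA1A and -0.95 to -0.74 for HSPA1B. Such a fit has a single residual degree of freedom, and 2 to 5 members were called, while the share of all genes called was 0.641% to 1.77%, against 0.11% with all libraries. There were 4 without sgRNA1 replicate 1 (1.53% of all genes; DNAJB1 and HSPH1 now called, adjusted p 0.0159 and 0.0317) and 4 without sgRNA1 replicate 2 (1.77%; DNAJB1 and HSPA5, 0.0151 and 0.0128). Without sgRNA2 replicate 2 there were 5 (1.11%; DNAJB1, HSPH1 and HSPA5, 0.00532, 0.0394 and 0.0316), and without sgRNA2 replicate 1 there were 2 (0.641%).

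The heat shock element was more frequent before member starts than before starts in general. GAANNTTC lay within 250 bases upstream of 16 of 91 member starts (17.6%), against 5.78% of 35116 RefSeq starts, and CCAAT, searched on both strands, before 39.6%, against 32.0%. A run of 3 units, GAANNTTC with a further unit in alternating orientation at the same spacing on either side, lay before 6 member starts (6.59%, against 0.441%), those of DNAJB6, HSP90AA1, HSP90AB1, HSPA6, HSPA8 and HSPD1. HSPA1L and HSPA1A are transcribed head to head and share the element shown above. Of the 13 tested members with GAANNTTC, 9 rose and 3 fell in replicate 2 (median 0.33), and of the 41 without it 11 rose and 7 fell (median 0.04), where 25.5% of all tested genes rose and 27.1% fell. Tested members with no start in the table, HSPB2 and DNAJC22 among them, are in neither count, and the same split was not made over all genes. HSPA6, HSPB1 and HSP90AA1 were the 3 with the element that fell. A match describes these letters in this window and is not evidence of binding.

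The estimated and whole-number tables did not count the members alike. The ratio of whole-number to estimated counts had a median of 0.53 over the tested members. Of those with at least 20 estimated counts on average, 5 were below 0.1: HSPA1B (0.0117), HSPE1 (0.0157), DNAJA3 (0.0374), HSPA1A (0.0438) and HSPA1L (0.0569). HSPA1A kept 155 and 631 whole-number counts in the control, 343 and 590.0 with sgRNA1 and 400.0 and 569 with sgRNA2. HSPA1B kept 36 and 112, 71 and 87, and 78 and 123. HSPA1A, HSPA1B, HSPA1L and DNAJA3 each have a transcript at an additional placement in the RefSeq annotation, and HSPE1 overlaps the readthrough gene HSPE1-MOB4, which kept 0 whole-number counts. How the reads divide between HSPA1A and HSPA1B is uncertain in either table, so their counts were also summed. The sum was 1.03 higher in replicate 2 in the estimated counts (SE 0.135, edgeR adjusted p 3.8e-05) and 0.95 higher in the whole-number counts (adjusted p 0.000335). In knockout against wild type with the block, the sum did not pass. It was at 0.52 in the estimated counts (SE 0.152, edgeR adjusted p 0.0983) and 0.38 in the whole-number counts (SE 0.175, adjusted p 0.383).

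DNAJA3, a mitochondrial HSP40, had 33 and 18 whole-number counts in the control, 51 and 33 with sgRNA1 and 544 and 40 with sgRNA2, with 1 library far above the others, while its TPM was 99.7 to 117 in all libraries. With the block, sgRNA2 against control gave a log2 fold change of 3.12 (SE 0.5, edgeR adjusted p 0.00431) in the whole-number counts and -0.04 (adjusted p 0.83) in the estimated counts. DNAJC9-AS1 had the highest ratio of the tested members (1.64); the strand setting of the counting is not given in the sources used here, so its reads and those of CFAP70 and MRPS16, which overlap it in the RefSeq annotation, may not be separable.

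**Figure D5:**
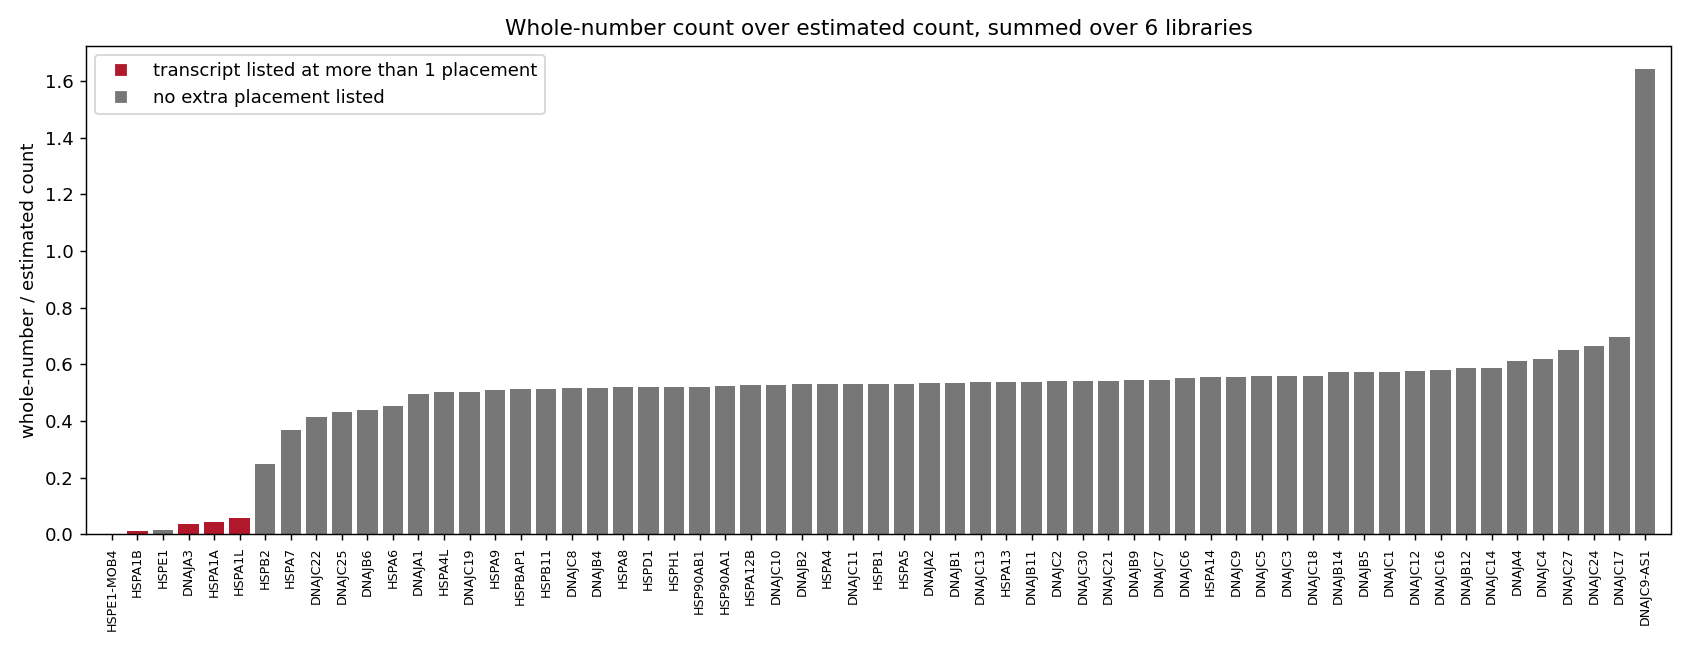
Ratio of whole-number to estimated counts for the tested members, with genes that have a transcript at an additional placement marked in red. Most bars lie near the median of 0.53, and HSPA1B, HSPE1, DNAJA3, HSPA1A and HSPA1L lie under 0.1.

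Chaperone partners and unfolded protein response genes were taken from lists. HSF1, the regulator of the heat shock response, was at a TPM of 96.6 to 105 in the 6 libraries. Of 36 partner genes, CRYAB, a small heat shock protein outside the name pattern, was the one called in knockout against wild type with the block, where 3.03% of all genes were called. Its TPM was 7.34 and 16.3 in the control, 15.5 and 23.4 with sgRNA1 and 17.2 and 26.4 with sgRNA2, and its log2 fold change was 0.84 (SE 0.159, edgeR adjusted p 0.0132), while without the block 0 of 36 were called. In replicate 2 against replicate 1, 12 of 36 partners rose and 4 fell (median 0.06), where 25.5% of all tested genes rose and 27.1% fell, among them BAG3, an HSP70 exchange factor, which rose by 0.45 (edgeR adjusted p 0.000103). Of 21 unfolded protein response genes 0 were called in knockout against wild type by edgeR with or without the block, and 7 of the 21 rose and 5 fell in replicate 2, against the same shares of all genes. HSP90B1, at a TPM of 387 to 413, did not pass in either contrast.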

How the data were processed

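RNA-seq was done on 6 K562 libraries. Per the submitters' processing notes the tools were Trim Galore, HISAT2 2.2.1, SAMtools 1.9, HTSeq 0.6.1, RSEM 1.3.2 and DESeq2 1.36.0 with build hg38; which tool made which table is not stated there. The authors deposited estimated counts with TPM and FPKM per gene, per the file headers, and a table of whole-number counts. Rows of the whole-number table that name no gene held 61.6% to 62.6% of its counts and stayed out of library sizes.

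Estimated counts were rounded to whole numbers and tested with edgeR 4.0.16 (R 4.3.3; TMM, filterByExpr, quasi-likelihood F-test, Benjamini-Hochberg over 12764 genes, threshold 0.05). The main comparisons had no block. The replicate number was added as a block because same-numbered libraries deviated together, with r of 0.771, 0.78 and 0.835 for the 3 pairs of groups; the common dispersion was 0.0656 without it and 0.00355 with it in the guide contrasts. Alternatives were whole-number counts, DESeq2 1.42.0 size factors and Wald test, no filter (minimum count 1), limma 3.58.1 on log2(FPKM + 1) and log2(FPKM + 0.1) with a mean FPKM of at least 0.5, and leaving out each library. The edgeR steps were also run on simulated counts that had the same dispersion for every gene. That run therefore does not speak for genes whose spread differs, nor for the DESeq2 and limma fits.

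Members and lists were chosen with earlier results of these data known. Named were the 3 most abundant members of each class, the stress-inducible, endoplasmic reticulum and mitochondrial lists, members called in a knockout or guide contrast, the 8 largest rises and 8 largest falls in replicate 2, and members with a whole-number to estimated ratio under 0.1 or over 1.5. Promoter sequences are from RefSeq (GRCh38.p14). The result of a single K562 marker gene is not reported here.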

Additional observations from a re-analysis of the deposited data

Results flagged for a closer look

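Among the 4 knockout libraries, DNAJC19 was at a TPM of 65.3 in sgRNA1 replicate 1 and at 74.8 to 76.8 in the others, a gap to its nearest neighbour large for the range of the group. Chance gives such a gap in about 1 in 20 groups, and 42 named members were looked at.

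The knockout difference in replicate 2 minus that in replicate 1 was -1.07 for HSPA1A and -0.84 for HSPA1B on the log2 scale, by the edgeR interaction test added after the data were seen. A deviation of the single control library of either number would give the same values, and the test holds no spread between controls.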

How the results depend on the processing

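Without the block, 0 members were called for either guide, knockout against wild type or the guide difference under every alternative run, leaving out each library included. With the replicate block, sgRNA1 gave 1 call, sgRNA2 2, knockout against wild type 2 and the guide difference 0. With the block and another setting, in the order sgRNA1, sgRNA2, knockout, the counts were 1, 2 and 2 with DESeq2 size factors (1.37%, 2.23% and 3.02% of all genes), 5, 10 and 5 without a filter (2.82%, 3.98% and 2.85% of all genes), and 1, 1 and 2 with the DESeq2 Wald test (0.862%, 1.33% and 2.34%). Whole-number counts with the block gave 1 for sgRNA2 and 2 for knockout. Limma with the block called 0 for each guide and 1 for knockout at each pseudocount (1 and 0.1), so the guide calls of HSPB1 and HSPA4L were lost there. In the same order the shares of all genes were 0.372%, 0.795% and 1.64% at a pseudocount of 1, and 0.338%, 0.711% and 1.79% at 0.1. With no FPKM filter limma called 0 for sgRNA1, 1 for sgRNA2, 0 for knockout and 1 for the guide difference (0.221%, 0.228%, 0.135% and 0.249% of all genes). Leaving out each library with the block gave 0 to 11 for sgRNA1, 2 to 13 for sgRNA2, 0 to 6 for knockout (4 without sgRNA1 replicate 2) and 0 to 2 for the guide difference; the highest counts (11, 13 and 6) came without control replicate 2, which leaves 1 control library and where 6.43%, 9.42% and 2.84% of all genes were called. Against the fit without the block, 2 values that an alternative called turned their sign, both for sgRNA2: DNAJA3 was at 3.12 with whole-number counts and the block (edgeR adjusted p 0.00431), against -0.04 in estimated counts with the block, and HSPA5 at 0.18 without control replicate 2 and with the block (adjusted p 0.0185), against -0.01 without the block and 0.00 with it in all libraries; the cause was not tested.

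In replicate 2 against replicate 1, leaving out each library gave 25 to 34 calls (37.9% to 51.2% of all genes), and limma without the FPKM filter, chosen after seeing the data, gave 3 of 84 members (3.43% of all genes). The control mean of the small heat shock class by name was 771, and 595 over its chaperones alone. The common dispersion of the guide contrasts was 0.0656 without the block and 0.00355 with it.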
